A study of Homo sapiens with 6 samples.

Results

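The TRIM and RNF genes encode proteins that mostly carry a RING finger, and transcripts of 77 of them were compared between T98G and U87MG, both established human glioblastoma cell lines. The genes were all those with a probe set whose single platform symbol begins with TRIM or RNF and a digit, RNF24 left out. They comprised 33 TRIM and 44 RNF genes of the 11963 genes measured, each represented by its probe set with the highest mean over the 6 arrays. The rule reads gene names and mean levels only, but the choice was made with earlier results of these data known. Each line had 3 arrays, and T98G and U87MG were grown in the same serum-containing medium with no treatment named for any array. T98G is labelled as sensitive to apoptosis by the proteasome inhibitor bortezomib and the isopeptidase inhibitor G5 and partly protected from necrosis by G5. U87MG is labelled as resistant to that apoptosis and sensitive to that necrosis. The lines come from different tumours, so every difference below is between 2 lines and carries all that separates them.

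A RING finger is a zinc-binding fold that holds a ubiquitin-conjugating enzyme (E2) beside a substrate, so that ubiquitin passes from the E2 to the substrate. Proteins with the fold therefore act as ubiquitin ligases (E3), which choose what is marked for the proteasome, for sorting to lysosomes or for signalling. TRIM proteins add B-box and coiled-coil domains to the RING and are known for roles in antiviral defence, chromatin and the cytoskeleton. RNF is a naming group with no shared architecture, whose members range from membrane proteins of endosomes to nuclear enzymes of DNA repair. Some TRIM proteins lack the RING.

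All levels are deposited log2 values, per array or as mean ± SD over the 3 arrays of a line. Every difference is T98G minus U87MG on that log2 scale. Limma tested all genes together, and a gene counted as called when it was 2-fold or more apart and its Benjamini-Hochberg adjusted p was under 0.05. Arrays of one line correlated at r = 0.986 to 0.997 across the 77 genes and arrays of different lines at 0.917 to 0.932, the genes not being independent. Over 12 poly-A control probe sets U87MG replicate 3 averaged 5.38, the lowest of the arrays, the rest averaging 6.11 to 6.83. The part of this array in the results was not tested beyond leaving it out. It was the U87MG array farthest from the line's median in 40.3% of the 77 genes and in 47.2% of all genes. The lines carried the mesenchymal and glioma-associated transcripts VIM (14.59 ± 0.05 in T98G and 14.85 ± 0.05 in U87MG) and CD44 (13.93 ± 0.06 and 13.68 ± 0.14), whereas the astrocyte marker GFAP was low in both (6.42 ± 0.04 and 6.52 ± 0.04). Of 11 glial and glioblastoma markers, 3 were called (27.3%, beside 13.6% of all genes). These were SOX9, higher in T98G (log2 difference 1.99), and NES and SLC1A3, lower (-2.55 and -1.04). Among 21 markers of neurons, leukocytes, endothelium and epithelium, 17 had means under 7.63, the median of all probe set means, in both lines. So did 6 of the 11 glial and glioblastoma markers, GFAP among them. Whether the replicates of a line were grown apart is not stated in the labels, and the p-values then describe only how these arrays scatter. In bulk RNA, fewer expressing cells and less RNA per cell cannot be told apart.

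Of the 77 genes, 5 were called higher and 3 lower in T98G, 10.4% in all, beside a background of 13.6% of all genes called (7.01% higher and 6.56% lower). The genes higher in T98G were RNF130, TRIM16, TRIM14, RNF44 and RNF115, and those lower were RNF128, TRIM2 and RNF144A. At an adjusted p under 0.05 with no fold minimum, 16 were higher and 16 lower, 41.6% of the genes beside 41.3% of all genes (21.7% higher and 19.7% lower). The arrays of the lines did not overlap in 41 of the 77 genes (53.2%), beside 52.0% of all genes. The median difference was 0.016 over the 77 genes and 0.0091 over all genes, and the median absolute difference was 0.28 over the 77 genes and 0.26 over all genes. TRIM and RNF genes thus differed between the lines about as often as genes in general, and 45 of the 77 did not pass the test at any size. A mean above 7.63 in at least 1 line was found for 56 of the genes. For TRIM58 and RNF32 all 6 arrays were below 4.03, the top reading of the 3 TrpnX control probe sets, which match no human gene.

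**Figure D1:**
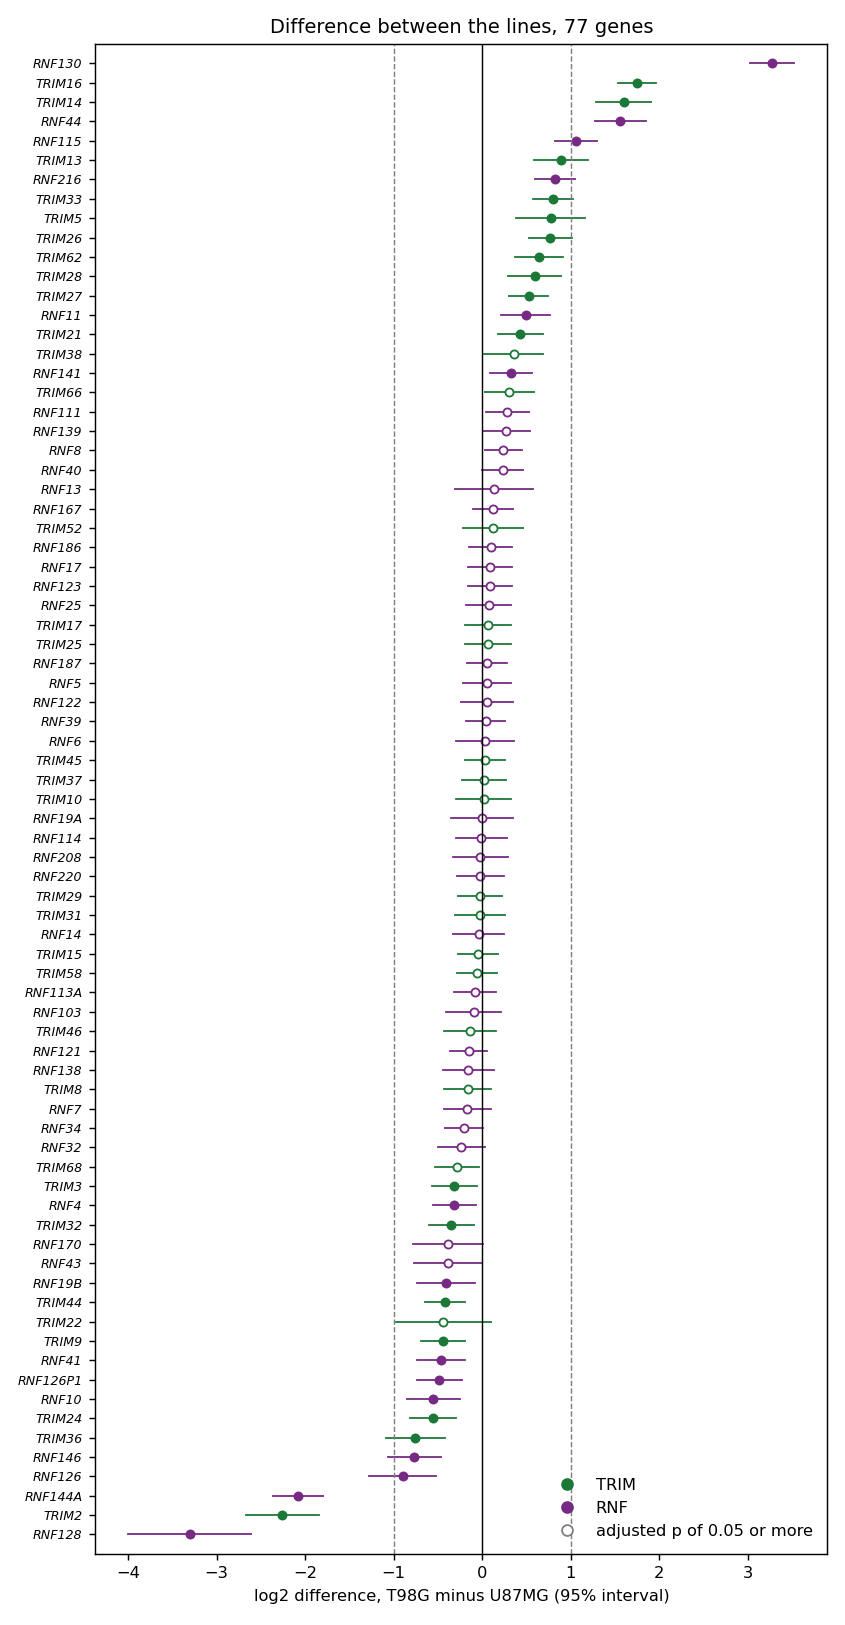
Differences of the 77 TRIM and RNF genes on the log2 scale (T98G minus U87MG) with 95% intervals from limma, TRIM genes in green and RNF genes in purple. Filled points had an adjusted p under 0.05 and dashed lines mark 2-fold. RNF130 at 3.28 and RNF128 at -3.30 lie farthest out, and 69 genes were not called.

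The widest differences in both directions belonged to RNF130 and RNF128, both of the class of ligases with a protease-associated domain and a transmembrane segment. Several ligases of this class sit in endosomal and lysosomal membranes. RNF130, the human counterpart of the fly gene goliath, had 10.94, 10.91 and 11.15 in T98G against 7.84, 7.66 and 7.67 in U87MG. The difference of 3.28 (SE 0.11, adjusted p = 2.02e-08) made it 9.69-fold higher in T98G. RNF128, which encodes GRAIL, a ligase known for enforcing anergy in T cells, had 3.77, 3.45 and 3.35 in T98G against 7.47, 6.99 and 6.01 in U87MG. All 3 T98G values lay under 4.03, and with such values set to 4.03 RNF128 was at least 6.92-fold lower in T98G (fitted log2 -3.30, SE 0.31, adjusted p = 2.02e-05). The U87MG arrays of RNF128 spread by an SD of 0.74, with replicate 3 the lowest, and without that array the difference was -3.71. A second RNF130 probe set (mean 6.39 in T98G, 5.91 in U87MG) had a difference of only 0.48, and the mean of both probe sets gave 1.88. The other 3 measured genes of the class were not called, so 40% of its 5 genes were called, beside 13.6% of all genes. The share at an adjusted p under 0.05 was also 40%, near the 41.3% of all genes. With 5 genes these shares describe the genes named, not the class. RNF13, a ligase of endosomes and lysosomes, had a difference of 0.14 (95% interval -0.31 to 0.58), and RNF167, another lysosomal ligase, had 0.12 (-0.10 to 0.35). RNF43, which removes Wnt receptors from the cell surface, had -0.38 (-0.77 to -0.0038, adjusted p = 0.101).

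The sequence before the annotated starts of RNF130 and RNF128 is shown because these genes lay at the opposite ends of the range. Each run is the 250 bases before a start in RefSeq (GRCh38.p14), read along the gene, with CG dinucleotides, the sites at which vertebrate DNA is methylated, in capitals.
RNF130 (chr5:180071760-180072009, minus strand): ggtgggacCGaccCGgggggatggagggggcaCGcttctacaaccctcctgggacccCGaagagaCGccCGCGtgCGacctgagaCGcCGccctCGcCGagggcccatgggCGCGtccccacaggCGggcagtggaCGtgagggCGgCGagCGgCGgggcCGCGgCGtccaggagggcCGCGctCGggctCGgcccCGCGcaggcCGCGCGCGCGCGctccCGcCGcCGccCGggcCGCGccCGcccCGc
RNF128, first start (chrX:106693588-106693837, plus strand): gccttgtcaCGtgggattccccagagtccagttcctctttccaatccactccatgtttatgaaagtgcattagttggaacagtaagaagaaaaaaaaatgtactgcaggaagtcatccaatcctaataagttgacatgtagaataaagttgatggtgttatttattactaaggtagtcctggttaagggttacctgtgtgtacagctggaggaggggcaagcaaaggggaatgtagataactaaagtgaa
RNF128, second start (chrX:106726451-106726700, plus strand): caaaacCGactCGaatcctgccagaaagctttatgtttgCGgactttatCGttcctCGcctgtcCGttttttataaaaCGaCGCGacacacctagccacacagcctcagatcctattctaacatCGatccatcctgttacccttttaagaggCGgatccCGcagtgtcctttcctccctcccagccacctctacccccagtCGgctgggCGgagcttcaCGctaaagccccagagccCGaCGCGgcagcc
The RNF130 run held 43 CG dinucleotides, above the upper quartile of 23 over all 35114 RefSeq windows, whose median was 11. Over the 95 windows of TRIM and RNF genes the upper quartile was 25.5 and the median 15. RNF167, of the same class and not called, held 41 and 27 before its starts. The RNF128 runs held 1 and 18. The arrays do not tell which RNF128 start was used, and methylation was not measured.

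**Figure D2:**
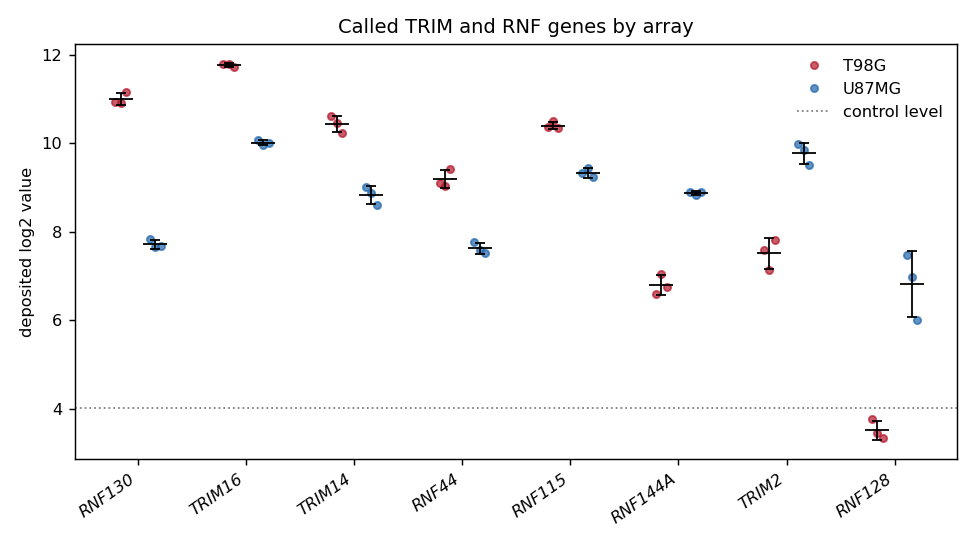
Deposited log2 values of the 8 called genes on each array, T98G in red to the left of U87MG in blue, with mean and SD bars (n = 3 arrays per line). The dotted line marks 4.03, the highest control value. In each gene the arrays of the lines do not overlap, and only RNF128 in T98G lies under the line.

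RING-between-RING ligases form a thioester with ubiquitin before passing it on. Of 5 measured genes of this class, 0 were called higher and 1 lower in T98G. This is 20% called, beside 13.6% of all genes, and with 5 genes it describes the genes named. RNF144A, whose product degrades the DNA repair kinase DNA-PK, had 6.59, 7.04 and 6.76 in T98G against 8.90, 8.83 and 8.91 in U87MG. It was 4.23-fold lower (log2 -2.08, SE 0.13, adjusted p = 9.67e-07), and every T98G array lay below every U87MG array. RNF216, which marks toll-like receptors and the kinase RIPK1, ran the other way with 9.45, 9.52 and 9.40 in T98G against 8.66, 8.53 and 8.70 in U87MG. Its difference of 0.82 (adjusted p = 0.000117) fell short of 2-fold, and its other probe set gave 0.49. RNF19B, a ligase of natural killer cell cytotoxicity, had -0.41 (adjusted p = 0.0466). RNF14, a coactivator of the androgen receptor, had -0.04 (-0.33 to 0.25) and RNF19A had -0.0030 (-0.35 to 0.35).

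Of 9 measured TRIM genes of antiviral and innate immune signalling, 1 was called higher and 0 lower by limma (5 at an unadjusted p under 0.05, all higher), and 4 had an adjusted p under 0.05, all higher in T98G. These are shares of 11.1% called and 44.4% at an adjusted p under 0.05, near the 13.6% and 41.3% of all genes. TRIM14, a RING-less adaptor of the mitochondrial antiviral protein MAVS, had 10.61, 10.45 and 10.24 in T98G against 9.01, 8.88 and 8.61 in U87MG, a 3.03-fold difference (log2 1.60, SE 0.14, adjusted p = 1.26e-05). The other 3 TRIM14 probe sets gave 0.75, 0.08 and -0.07, so the call rests on the brightest, and the mean of all 4 gave 0.59. TRIM5, which recognises retroviral capsids, had 8.78, 8.30 and 8.84 in T98G against 8.15, 7.78 and 7.67 in U87MG (0.78, adjusted p = 0.00522). TRIM26 lies in the major histocompatibility complex and regulates interferon signalling. Its values were 9.79, 9.63 and 9.80 in T98G against 8.82, 9.02 and 9.07 in U87MG (0.77, adjusted p = 0.000342). TRIM21, a cytosolic antibody receptor, had 8.69, 8.61 and 8.74 in T98G against 8.45, 8.15 and 8.15 in U87MG (0.43, adjusted p = 0.0126). The lines did not overlap in any of these 4 genes.

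The remaining antiviral TRIM genes did not pass. TRIM25, which activates the RNA sensor RIG-I, had a difference of 0.064 (-0.20 to 0.32), and without T98G replicate 2 it had -0.0045. TRIM22, an interferon-induced restriction factor, had 10.07, 9.42 and 10.51 in T98G against 10.66, 10.32 and 10.34 in U87MG, a difference of -0.44 (-0.97 to 0.10) with overlapping arrays and T98G replicate 2 the lowest. TRIM38, a regulator of innate signalling, had 0.36 on its brightest probe set (adjusted p = 0.0859), while its other 2 gave 0.69 and 0.91. TRIM8, which acts on NF-kB signalling, had -0.16 and TRIM31, a ligase of MAVS, had -0.024 (5.42 ± 0.11 in T98G, 5.44 ± 0.21 in U87MG).

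**Figure D3:**
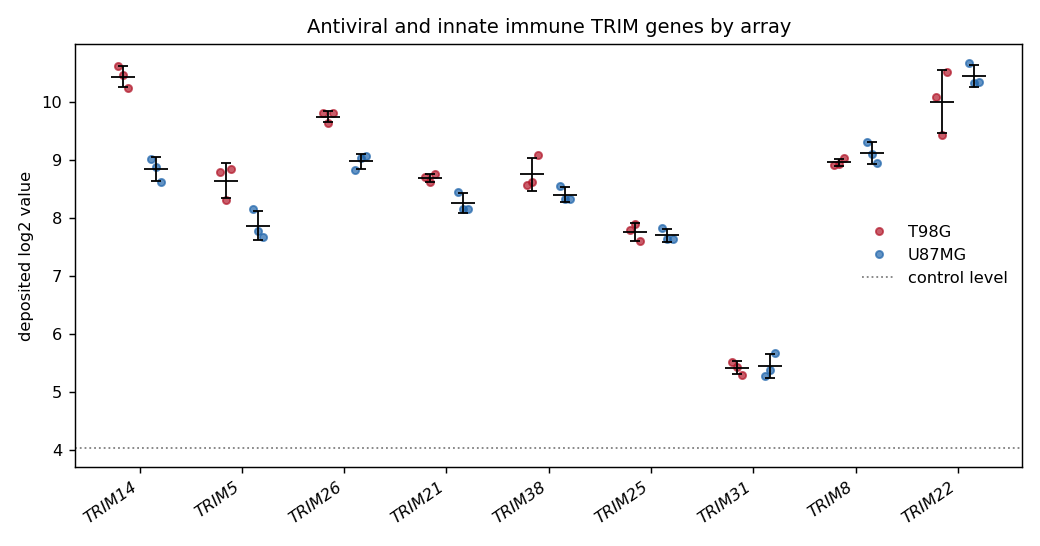
Deposited log2 values of 9 TRIM genes of antiviral and innate immune signalling, T98G in red to the left of U87MG in blue, with mean and SD bars (n = 3 arrays per line) and the highest control value, 4.03, as a dotted line. TRIM14, TRIM5, TRIM26 and TRIM21 had non-overlapping lines with an adjusted p under 0.05. TRIM25, TRIM31, TRIM8 and TRIM22 overlapped, and TRIM38 did not overlap but did not pass.

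These 4 genes held a core interferon-stimulated response element, the sequence bound by interferon regulatory factors, in RefSeq's windows of 250 bases before to 50 after each start. The letters searched on both strands were GAAA, any 2 bases and GAAA again, and matches are in capitals in the 30 bases around them.
TRIM14 (chr9:98119229-98119258, minus strand): acggccgaggTTTCGGTTTCccttgggagc
TRIM5 (chr11:5685082-5685111, minus strand): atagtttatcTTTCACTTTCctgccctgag
TRIM26 (chr6:30213578-30213607, minus strand): cgcctgaTTTCAGTTTCCATTTCgctgccc
TRIM21 (chr11:4393663-4393692, minus strand): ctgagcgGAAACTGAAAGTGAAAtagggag
TRIM26 and TRIM21 each have 2 overlapping matches. Counted from the start base, the first base of the match lies at -26 in TRIM14, at -27 in TRIM5, at -194 and -188 in TRIM26 and at 17 and 23 in TRIM21. Windows were found for 63 of the 77 genes, and the element was in 8 of them (12.7%), beside 4.38% of 27303 genes with a window. The other 4 were TRIM16, TRIM2, TRIM44 and RNF32. By result, it was in 5 of 13 genes higher in T98G at an adjusted p under 0.05, 2 of 13 lower and 1 of 37 with no such difference. The same split was not made over all genes, and the 5 include TRIM14, TRIM5, TRIM26 and TRIM21 shown here. Of the other 5 antiviral TRIM genes, the windows of TRIM25, TRIM38 and TRIM31 held no match, and TRIM22 and TRIM8 were not searched. This element was picked from 10 motifs after the matches were seen, so these counts are a description without a test, and a match in sequence is not a bound site.

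Genes of RIG-I and interferon signalling, on whose products several of these ligases act, were read beside them. Of 12 measured, 4 were called higher in T98G and 0 lower (33.3% called, beside 13.6% of all genes). The share at an adjusted p under 0.05 was 41.7%, near the 41.3% of all genes. IFIH1, the RNA sensor MDA5, had a difference of 2.64 (SE 0.30, adjusted p = 6.90e-05), with 8.33, 7.29 and 8.10 in T98G against 5.84, 4.97 and 4.99 in U87MG. MAVS, the adaptor to which TRIM14 binds, had 9.68, 9.57 and 9.59 in T98G against 8.43, 7.96 and 7.97 in U87MG (2.82-fold, adjusted p = 1.88e-05). The transcription factor genes IRF1 and IRF7 had differences of 1.71 and 1.61. RIGI, which encodes RIG-I, ran the other way at -0.78 (adjusted p = 0.000912) and fell short of 2-fold, and IRF9 had -0.06.

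Of 5 TRIM genes of chromatin and transcription, limma called 0 (5 had an unadjusted p under 0.05), beside 13.6% of all genes called. At an adjusted p under 0.05, 3 were higher and 1 lower in T98G, 80% beside 41.3% of all genes. With 5 genes these counts describe the genes named, not the class. TRIM28, the corepressor of zinc finger proteins that silences endogenous retroviruses, had 12.84, 13.05 and 12.68 in T98G against 12.10, 12.22 and 12.45 in U87MG (0.60, adjusted p = 0.00512). TRIM33, a relative that acts on SMAD4, had 10.41, 10.39 and 10.49 in T98G against 9.60, 9.75 and 9.55 in U87MG (0.80, adjusted p = 0.000161), with its 4 probe sets from 0.27 to 0.80. TRIM24, another relative, which reads histone marks and is a ligase for p53, lay in the opposite direction with 8.97, 8.95 and 9.06 in T98G against 9.44, 9.75 and 9.44 in U87MG (-0.55, adjusted p = 0.00359). Its 3 probe sets ran from -0.63 to -0.12. TRIM27, a transcriptional repressor, had 0.53 (adjusted p = 0.0019) with probe sets from 0.08 to 0.87, and TRIM66, the remaining relative of TRIM28, had 0.31 (adjusted p = 0.0764).

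TRIM proteins with NHL repeats, or with a filamin domain alone, act in neurons and muscle. Of 4 measured genes, 1 was called lower and 0 higher, and 3 were lower at an adjusted p under 0.05, beside 13.6% of all genes called and 19.7% lower at an adjusted p under 0.05. With 4 genes these counts describe the genes named, not the class. TRIM2, which marks the neurofilament light chain and promotes axon growth, had 7.59, 7.14 and 7.82 in T98G against 9.97, 9.84 and 9.50 in U87MG. It was 4.78-fold lower in T98G (log2 -2.26, SE 0.18, adjusted p = 8.18e-06), with every T98G array below every U87MG array. Of its 5 probe sets 4 were called lower, from -2.56 to -1.17, and the dimmest (mean 4.91 in T98G, 5.26 in U87MG) gave -0.35. Its nearest relative TRIM3, a brain ligase of synaptic proteins, had -0.32 (adjusted p = 0.0499), with all 4 probe sets between -0.54 and -0.32. TRIM32, the limb-girdle muscular dystrophy ligase, had -0.35 (adjusted p = 0.0319), and TRIM45 had 0.032. Of 3 measured cytoskeletal TRIM genes, limma called 0 (2 had an unadjusted p under 0.05), beside 13.6% of all genes. At an adjusted p under 0.05, 2 were lower (66.7%), beside 41.3% of all genes in either direction and 19.7% lower. With 3 genes these counts describe the genes named, not the class. The 2 lower genes were TRIM36, which binds microtubules, at -0.75 (5.06 ± 0.13 in T98G and 5.82 ± 0.28 in U87MG), and TRIM9, a neuronal ligase, at -0.44 (4.73 ± 0.10 and 5.17 ± 0.13). TRIM46, which bundles axonal microtubules, had -0.13 (-0.43 to 0.16). All 3 cytoskeletal genes had means under 7.63 in both lines, so their differences are those of dim transcripts. Beside these TRIM genes, 3 of 6 neuronal markers were lower in T98G at an adjusted p under 0.05, SNAP25, GAD1 and SYT1. This is 50%, beside 41.3% of all genes in either direction and 19.7% lower. The mean of the 6 was 6.14 to 6.39 on T98G arrays and 7.22 to 7.36 on U87MG arrays. GAD1 and SNAP25 had the largest differences of the 6 (-3.71 and -1.60). STMN2 at 0.25, RBFOX1 at -0.07 and SLC17A7 at -0.11 did not pass. SYT1, STMN2 and RBFOX1 were under 7.63 in both lines. The part of neuronal transcripts in the TRIM differences was not tested.

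**Figure D4:**
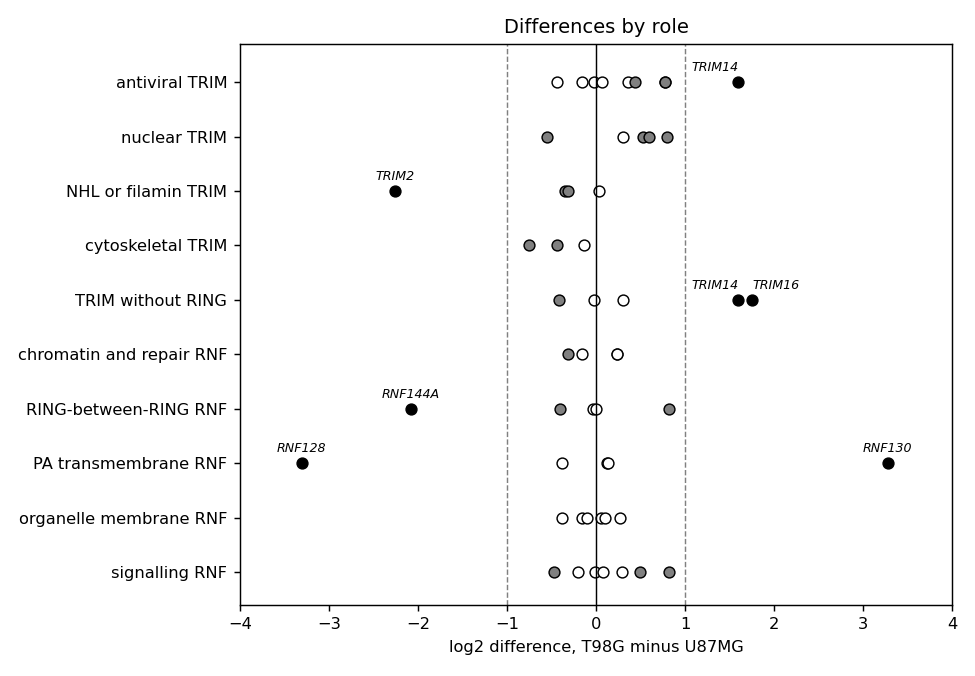
Log2 differences (T98G minus U87MG) of measured genes in 10 role lists, each point a gene on its brightest probe set and a gene in more than 1 list shown in each. Black points were called and are named, grey points had an adjusted p under 0.05 but were under 2-fold, white points had neither, and dashed lines mark 2-fold. RNF128 and RNF130 of the protease-associated (PA) transmembrane class lie at opposite ends, and organelle membrane RNF genes lie between -0.38 and 0.27.

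Of the 5 TRIM genes whose product lacks the RING, 2 were called higher and 0 lower in T98G, TRIM16 and the TRIM14 described above. This is 40% called, beside 13.6% of all genes, and with 5 genes it describes the genes named, not the class. TRIM16, which takes part in the autophagy of damaged lysosomes, had 11.80, 11.79 and 11.71 in T98G against 10.07, 9.95 and 10.01 in U87MG. It was 3.37-fold higher (log2 1.75, SE 0.10, adjusted p = 4.59e-07) with the tightest replicates of the 8 called genes in T98G (SD 0.05). TRIM16 has a near-identical relative, TRIM16L, which its single probe set may also detect, so the value is uncertain as to which copy it reports. TRIM44 was lower at -0.42 (11.25 ± 0.08 in T98G and 11.67 ± 0.08 in U87MG, adjusted p = 0.00738), under 2-fold on both probe sets. TRIM29 had -0.02 and TRIM66 was given above.

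RNF44 and RNF115 were called and belonged to no role list. RNF44, a little-studied RING protein, had 9.10, 9.05 and 9.43 in T98G against 7.76, 7.60 and 7.52 in U87MG, a 2.95-fold difference (log2 1.56, SE 0.13, adjusted p = 9.05e-06). RNF115, a ligase that binds the endosomal GTPase RAB7, had 10.36, 10.49 and 10.33 in T98G against 9.33, 9.44 and 9.23 in U87MG. At 2.09-fold (log2 1.06, SE 0.10, adjusted p = 2.97e-05) it lay just past the minimum, and the test against a 2-fold null did not call it. RNF126, its close relative, which handles mislocalised membrane proteins with the chaperone BAG6, lay in the opposite direction with 9.66, 10.13 and 9.41 in T98G against 10.65, 10.53 and 10.71 in U87MG. Its difference of -0.89 (adjusted p = 0.00191) was under 2-fold, and without T98G replicate 2 it was -1.09 and called. RNF126P1, annotated as a pseudogene of RNF126, had -0.48 (adjusted p = 0.007), and near-identical sequence means that this probe set may report RNF126. On the other side of the minimum lay TRIM13, a ligase of the endoplasmic reticulum membrane, at 0.89 (adjusted p = 0.00051), which was called at 1.02 without U87MG replicate 1.

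RNF genes of DNA damage and chromatin showed small differences, with limma calling 0 of 4 (3 had an unadjusted p under 0.05), beside 13.6% of all genes. At an adjusted p under 0.05, 1 was lower, 25% beside 41.3% of all genes. RNF4, which recognises chains of SUMO, had -0.32 (adjusted p = 0.0407), with 11.22, 11.25 and 11.22 in T98G against 11.50, 11.72 and 11.42 in U87MG. RNF8, which starts the ubiquitin response at double-strand breaks, had 0.24 (adjusted p = 0.0676), and its 2 probe sets gave 0.24 and 0.23. RNF40, a ligase of histones, had 0.23 and RNF138, which acts in the resection of broken DNA, had -0.15, neither passing.

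Of 6 measured RNF genes of the endoplasmic reticulum and other organelle membranes, 0 had an adjusted p under 0.05 by limma and 1 had an unadjusted p under 0.05. Among all genes 41.3% had an adjusted p under 0.05 and 13.6% were called. The differences ran from -0.38 to 0.27. RNF139, a sterol-regulated ligase, had 0.27 (0.0077 to 0.54), RNF170, which degrades activated calcium channels of the endoplasmic reticulum, had -0.38 (-0.78 to 0.01), and RNF103 had -0.10 (-0.41 to 0.22). RNF5, a ligase of misfolded proteins, had 5.33 ± 0.12 in T98G and 5.28 ± 0.18 in U87MG. RNF121 had -0.15 and RNF186, at 5.60 ± 0.15 in T98G and 5.50 ± 0.01 in U87MG, had 0.10.

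Among 7 measured RNF genes acting on death receptor, NF-kB and growth factor signals, limma called 0 (4 had an unadjusted p under 0.05), beside 13.6% of all genes. At an adjusted p under 0.05, 2 were higher and 1 was lower in T98G, 42.9% beside 41.3% of all genes. RNF11, a partner of the NF-kB inhibitor TNFAIP3, had 11.46, 11.33 and 11.32 in T98G against 11.08, 10.89 and 10.67 in U87MG (0.49, adjusted p = 0.00945), and RNF216 was the other higher gene. RNF41, which degrades the growth factor receptor ERBB3, had -0.47 (adjusted p = 0.0107), with -0.61 on its other probe set. RNF34, which marks caspases of death receptors, had -0.20 (-0.42 to 0.01), and RNF111, which degrades inhibitors of transforming growth factor beta signalling, had 0.29 (0.05 to 0.53, adjusted p = 0.0572). RNF25 had 0.073 and RNF114 -0.0079. Outside this list, RNF7, a RING subunit of cullin ligases that is in no role list, had -0.17 (-0.43 to 0.10). Its values were 10.52, 10.36 and 10.53 in T98G against 10.84, 10.60 and 10.48 in U87MG.

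Outside these lists 27 genes remained. Of these, 2 were called (RNF44 and RNF115, 7.41% beside 13.6% of all genes) and 9 had an adjusted p under 0.05 (33.3% beside 41.3%). Besides TRIM13, RNF126 and RNF126P1, those under 2-fold were TRIM62 at 0.64, RNF141 at 0.33, RNF10 at -0.55 and RNF146 at -0.76. RNF146, which destroys the Wnt scaffold axin once it carries poly(ADP-ribose), had 7.16, 7.15 and 7.24 in T98G against 8.14, 8.04 and 7.66 in U87MG (adjusted p = 0.0012). The other 18 did not pass, among them the centrosomal ligase TRIM37 at 0.02 (-0.22 to 0.27), the ligase of the cell cycle inhibitor CDKN1B RNF123 at 0.09 (-0.16 to 0.34), RNF6 at 0.03 (-0.30 to 0.37) and the germ cell gene RNF17, near the control level with 4.21 ± 0.09 in T98G and 4.12 ± 0.14 in U87MG. These 18 lay between TRIM68 at -0.28 (adjusted p = 0.0649) and TRIM52 at 0.12.

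Several probe sets were available for 26 of the 77 genes, 122 probe sets in all. Differences of all probe sets of a gene had the same sign in 18 of the 26, and every probe set passed an adjusted p under 0.05 in 7. No gene had probe sets passing in opposite directions. Probe sets gave different calls in 3 genes, RNF130, TRIM14 and TRIM2, and no further gene was called on any other probe set.

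**Figure D5:**
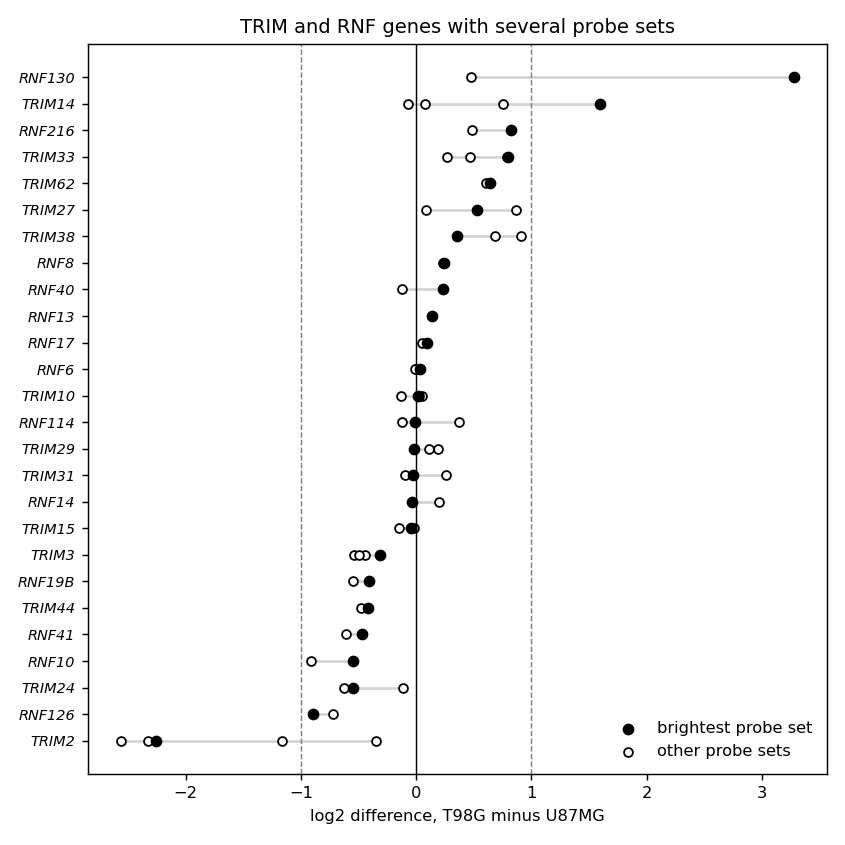
Log2 differences (T98G minus U87MG) of each probe set of the 26 genes with several, the brightest filled and the others open, with dashed lines at 2-fold. Probe sets of RNF130 run from 0.48 to 3.28, those of TRIM14 from -0.07 to 1.60 and those of TRIM2 from -2.56 to -0.35.

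Ubiquitin, E1 and E2 genes supply RING ligases. Of 14 measured, 1 was called higher and 1 lower (14.3% called). At an adjusted p under 0.05, 4 were higher and 3 lower, 50% beside 41.3% of all genes. UBA6, an activating enzyme, had -1.12 (8.43 ± 0.17 in T98G and 9.54 ± 0.20 in U87MG), and UBE2K had 1.03 and was not past 2-fold without T98G replicate 1 (0.98) or U87MG replicate 3 (0.91). UBE2N, an E2 used by several TRIM ligases, had 0.56 (adjusted p = 0.00216). Of 35 measured RING ligases and partners under other names, 2 were called higher and 4 lower in T98G (17.1% called). The shares called in both lists lay near the 13.6% of all genes. RBCK1, which serves the linear ubiquitin ligase complex, was higher at 1.42 (adjusted p = 3.17e-05) and CBLB, a brake on receptor signalling, at 1.25, although CBLB was at 0.95 without U87MG replicate 3. Membrane-bound MARCHF3, MARCHF2 and MARCHF8 were lower at -3.14, -1.75 and -1.24, and PDZRN3 at -1.41. MARCHF3 had 4.87, 4.90 and 4.53 in T98G against 7.85, 8.15 and 7.72 in U87MG. PML, the TRIM protein of nuclear bodies, had 0.14 (-0.12 to 0.39).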

How the data were processed

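Total RNA of T98G and U87MG was labelled with biotin and hybridised to Affymetrix arrays, 3 per line, per the labels' protocols. For each probe set the deposited values are log2 intensities. The submitters' processing notes name RMA and limma, with versions not given in the sources used here. Summarising with RMA gives arrays one distribution, which removes any difference in total RNA per cell and compresses differences of dim transcripts. Array medians were 7.55 to 7.65, and the number of arrays limits the precision.

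Gene names came from GEO's 2016 annotation of the platform, with symbols updated through Entrez identifiers in RefSeq (GRCh38.p14). Of 22277 probe sets, 19064 had 1 gene. RNF31 and RNF2 had no probe set with a single gene and were not analysed here. Limma 3.58.1 in R 4.3.3 (lmFit, eBayes, two-sided) compared T98G with U87MG over 11963 genes, and fold bounds set values under 4.03 to 4.03. The steps were tested on simulated data. Named genes were all called ones (on the brightest probe set or another), those within 0.15 below the 2-fold minimum, the smallest p per direction in each of 10 role lists, TRIM28, TRIM25, TRIM21, RNF31, RNF7 and RNF2 whatever their values, and up to 5 called genes of each list outside. Other genes were named after their values were seen. The genes, lists and tests were chosen with earlier results of these data known. Promoter windows came from RefSeq and matched 63 genes. Of 10 motifs searched, 1 is not reported here.

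The alternatives tried were other thresholds, the treat function of limma, removal of dim probe sets, other choices of probe set, repeated normalization, another variance model, the replicate number as a block, and each array left out.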

Additional observations from a re-analysis of the deposited data

How the results depend on the processing

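The 5 genes higher and 3 lower in T98G stayed called the same way in most alternatives. RNF130, TRIM16, RNF44 and RNF144A were called in all 16 alternatives and RNF128 in all 15 that kept it, since the filter on dim probe sets removed it. TRIM2 lost its call without multiply matching probe sets (-0.35, adjusted p = 0.0638), as did TRIM14 (0.08, and 0.59 on the mean of its probe sets). RNF115 lost its call against a 2-fold null. In these cases another or fewer probe sets, or a stricter null, were used by construction. Counts under the alternatives below have no share of all genes beside them and are not read against a background. With a fold minimum of 1.5 the counts were 12 higher and 6 lower. Among RING genes under other names 11 were then called, and among ubiquitin, E1 and E2 genes 4. Limma's treat called 2 and 0 in those lists (4 and 0 at its unadjusted p under 0.05). Genes at an adjusted p under 0.05 numbered 20 without multiply matching probe sets, which left 25 of the 77 genes without a value. Testing every probe set singly, added after seeing the data, gave 5 higher and 3 lower. Leaving out single arrays gave 5 to 6 higher, 3 to 4 lower, 26 to 33 at an adjusted p under 0.05, and 1 to 2 called among ubiquitin, E1 and E2 genes. The sign changed for TRIM25 without T98G replicate 2 (range over left-out arrays -0.0045 to 0.14) and for TRIM45 without U87MG replicate 3 (-0.027 to 0.082), neither called in any alternative. With the replicate number as a block, 5 were higher, 3 lower and 30 had an adjusted p under 0.05. Same-numbered arrays of the lines deviated together only weakly (r = 0.04 to 0.15), 5 of 6 arrays correlating best with their own number, so the numbers were not taken as pairs. The median over the 77 genes stayed between -0.01 and 0.05. Dim genes such as TRIM58, RNF32 and RNF17 lie too near control values for their differences to be read.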

Other observations

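In the search for motifs on both strands of the promoter windows, GC boxes (GGGCGG) were in 79.4% of the 63 genes with a window and 48.3% of all genes, and CCAAT boxes (CCAAT) in 60.3% and 39.7%. The E-box CACGTG was in 12.7% and 8.78%, and the AP-1 site TGANTCA in 11.1% and 9.37%. The cores of the antioxidant response element (TGACNNNGC) and the TATA box (TATAAA) were in 19.0% and 12.7% of the 63 genes, beside 16.1% and 14.0% of all genes. The cAMP response element TGACGTCA was in 3.17% and 2.25%, and the NF-kB site GGGAC followed by TTTCC in 0 of the 63 genes and 0.227% of all genes. All genes here include those the arrays do not measure. These shares are descriptions without a test.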
